A study of Mus musculus with 6 samples.

Results

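The genes described here are 5 genes of dendritic cell migration: the chemokine receptor genes Ccr7, Ccr1, Ccr2 and Cxcr4, and Fscn1, which encodes the actin-bundling protein fascin. Every probe set of the deposited signal table whose platform annotation gives exactly 1 of these symbols was taken, which gave 11 of 22690 probe sets, for 5 of the 12393 genes named on the array. Ccr7 and Fscn1 are read as the mature-type genes, and Ccr1, Ccr2 and Cxcr4 as the immature-type receptors.

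Dendritic cells sample peripheral tissue while immature and carry antigen to lymph nodes once they mature. Ccr1 and Ccr2 are receptors for inflammatory chemokines that draw immature cells into tissue, and Cxcr4 is the receptor for Cxcl12. On maturation the cells switch to Ccr7, whose ligands Ccl19 and Ccl21 lead them into lymphatic vessels, and fascin bundles actin in the long dendrites of the mature cell. NF-kB is a transcription factor widely used in this maturation programme, and IkBa keeps it in the cytoplasm. The super-repressor form of IkBa (IkBa-SR) resists the breakdown that releases NF-kB.

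The cells were grown in culture from bone marrow of female CAR-transgenic mice aged 13 weeks, with 7 days of expansion and 7 days of differentiation in 250 U/ml GM-CSF. All 6 groups share this background: AdIkBa-SR+TNFa, AdIkBa-SR, AdOVA+TNFa, AdOVA, TNFa and untreated. AdIkBa-SR is the adenovirus with the super-repressor and AdOVA the control adenovirus, each given at 1500 particles per cell, with 2 h of transduction and a further 18 h of culture. TNFa, an inflammatory cytokine upstream of NF-kB, was present at 50 ng/ml for 4 h. Each group has 1 Affymetrix MOE430A array, the labels do not say whether the groups came from separate animals or cultures, and no mock transduction is recorded for cells without virus.

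The 2% trimmed mean signal was 200 on every array, and the median was 88.5 and 82.6 on the AdOVA+TNFa and AdOVA arrays and 74.4 to 77.4 on the others. Of all probe sets, 63.4% and 62.3% passed a signal floor of 53.5 on these AdOVA arrays, against at most 59.2% on the others. The Actb 3'/5' ratio was 1.09 in AdIkBa-SR+TNFa against 1.38 in AdOVA+TNFa cells, and 1.36 in AdIkBa-SR against 1.84 in AdOVA cells. It was 1.49 in TNFa and 1.58 in untreated cells. The Gapdh 3'/5' ratio differed less in the same virus pairs, at 0.823 against 0.832 and 0.802 against 0.88. The part of these differences in the virus comparisons was not tested. Untreated, TNFa and AdOVA share 1 hybridization date in the array headers, and the other 3 arrays share another. These 2 date groups are called fluidics rounds 1 and 2 here. The AdIkBa-SR array alone was washed with 0 cycles in the first recorded washes and stained for 420 s, where the others had 10 and 4 cycles and 600 s. Of 12 dendritic cell markers, 9 were above this floor on every array, Itgax (247 to 847) and Cd74 among them. Flt3 (14.2 to 68.2) passed it on the AdOVA array only. Itgax and Irf8 were lowest in the 2 AdOVA arrays, Itgax at 329 and 247 against 664 or more elsewhere. Zbtb46 was highest in them, at 112 and 147. The macrophage markers Adgre1, Csf1r and Cd14 were at 3770 or more on every array, with Mertk at 152 to 351 and Fcgr1 at 482 to 1400. Of the markers with a probe set, 1 of 4 for T cells, 2 of 4 for B cells and 2 of 4 for NK cells passed the floor on 2 or more arrays. In such bulk RNA, fewer cells of a type and less RNA per cell cannot be told apart.

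The regions just before the transcription start are shown for the genes that differed most between AdIkBa-SR and AdOVA and have an entry in RefSeq's promoter table (GRCm38.p6), which holds 4 of the 5 members and not Ccr7. Each run is the 250 bases before the start, 5′ to 3′ on the gene's strand, at chr5:142960105-142960354 (plus) for Fscn1, chr9:124101933-124102182 (plus) for Ccr2 and chr1:128592300-128592549 (minus) for Cxcr4. Capitals mark matches to a kB-like motif (GGG and CC with 5 bases of any kind between them), the TATA box (TATAAA), the cAMP response element (TGACGTCA) and the GC box (GGGCGG), each searched on both strands.
Fscn1: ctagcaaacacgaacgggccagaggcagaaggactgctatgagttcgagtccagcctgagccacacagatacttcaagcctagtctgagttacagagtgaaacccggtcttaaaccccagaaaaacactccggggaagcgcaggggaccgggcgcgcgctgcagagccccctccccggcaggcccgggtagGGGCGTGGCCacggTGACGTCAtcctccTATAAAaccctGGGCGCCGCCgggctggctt
Ccr2: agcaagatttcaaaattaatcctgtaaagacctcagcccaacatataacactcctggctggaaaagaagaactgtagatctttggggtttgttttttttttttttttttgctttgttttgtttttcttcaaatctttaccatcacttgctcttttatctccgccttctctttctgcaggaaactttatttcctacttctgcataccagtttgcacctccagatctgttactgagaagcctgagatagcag
Cxcr4: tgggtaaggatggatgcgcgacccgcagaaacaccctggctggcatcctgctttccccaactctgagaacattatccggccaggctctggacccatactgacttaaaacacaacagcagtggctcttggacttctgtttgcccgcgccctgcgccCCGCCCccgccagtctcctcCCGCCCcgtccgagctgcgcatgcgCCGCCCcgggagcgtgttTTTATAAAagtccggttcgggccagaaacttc

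The Fscn1 region holds a TATA box that begins 31 bases before the start, a cAMP response element at 45 bases and kB-like matches at 59 and 20 bases, none of which overlap. The kB-like letters occur in 45.8% of the 32851 promoters of the table and the cAMP response element in 1.55%. The Cxcr4 region holds GC box matches at 95, 75 and 50 bases and a TATA box at 30 bases, which overlaps a match on the other strand at 32 bases. The TATA letters occur in 12.4% of promoters and the GC box in 32.7%. The Ccr2 region holds none of these motifs, and the Ccr1 region (not printed) holds 1 kB-like match at 74 bases. A stricter kB motif (GGG, 2 bases of any kind, then TTTCC), present in 1.41% of promoters, was in none of the 4 regions. GC content was 62.4% for Fscn1, 61.2% for Cxcr4, 43.6% for Ccr1 and 37.2% for Ccr2. These matches describe letters in the window and do not show a bound site.

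Cells with AdOVA stood apart from all others for Ccr7, Ccr2 and Cxcr4. Ccr7 was highest with AdOVA, and Ccr2 and Cxcr4 were lowest with it. Fscn1 was lowest with AdIkBa-SR on its 2 brighter probe sets, and Ccr1 varied least of the 5. For each gene the probe set with the highest mean signal is given first, and log2 differences were taken after raising signals under the floor of 53.5, the 40th percentile of all signals, to that floor. All 5 of these readings were above the floor on all 6 arrays.

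**Figure D1:**
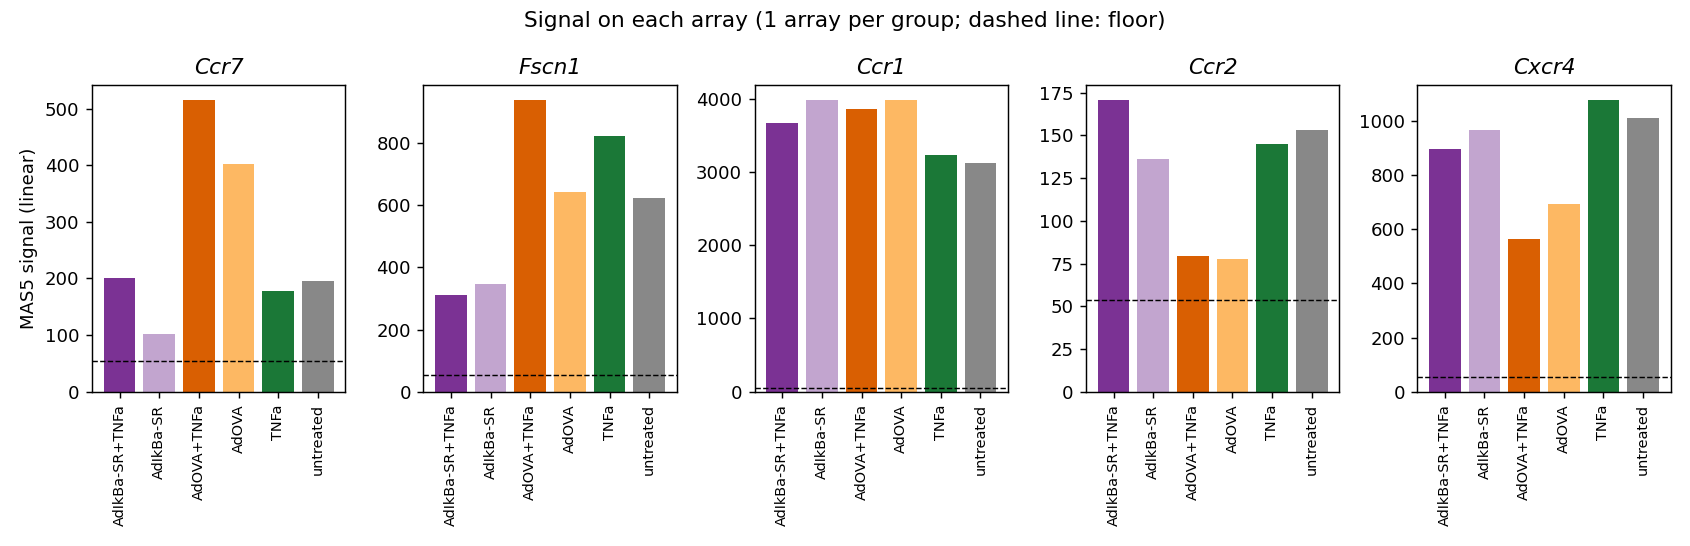
MAS5 signal on a linear axis for the brightest probe set of each gene, 1 bar per array, with the floor of 53.5 as a dashed line. Ccr7 stands at 516 and 402 in the AdOVA arrays and at 200 or less elsewhere, Ccr2 at 79.7 and 77.9 in the AdOVA arrays and at 136 or more elsewhere, and Ccr1 between 3130 and 3990.

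Ccr7, the lymph node homing receptor, had a signal of 200 in AdIkBa-SR+TNFa cells, 101 in AdIkBa-SR, 516 in AdOVA+TNFa, 402 in AdOVA, 177 in TNFa and 195 in untreated cells. Both AdOVA arrays lay above the other 4, the AdIkBa-SR array was lowest, and the remaining 3 lay close together. Both AdOVA arrays were above the other 4 for 21.1% of the 14906 probe sets above the floor on at least 2 arrays, so that order alone is common here. The span from lowest to highest array was 5.11-fold, wider than that of 98.9% of these probe sets.

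Fscn1 had a signal of 310 in AdIkBa-SR+TNFa cells, 348 in AdIkBa-SR, 940 in AdOVA+TNFa, 641 in AdOVA, 824 in TNFa and 623 in untreated cells. Both AdIkBa-SR arrays lay below the other 4, a pattern of 7.88% of probe sets. No member had both AdIkBa-SR arrays above the other 4, as 4.27% of probe sets did. On this brightest probe set, in cells without virus and with AdOVA, the array with TNFa was the higher of its pair. The order of the arrays for Fscn1 therefore differed from that for Ccr7, in which AdIkBa-SR+TNFa cells lay with those without virus and AdIkBa-SR cells below them.

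Ccr2, the receptor for Ccl2 and Ccl7, had a signal of 171 in AdIkBa-SR+TNFa cells, 136 in AdIkBa-SR, 79.7 in AdOVA+TNFa, 77.9 in AdOVA, 145 in TNFa and 153 in untreated cells. Cxcr4 had 897 in AdIkBa-SR+TNFa cells, 969 in AdIkBa-SR, 566 in AdOVA+TNFa, 692 in AdOVA, 1080 in TNFa and 1010 in untreated cells. For both receptors the AdOVA arrays lay below the other 4, a pattern of 11.7% of probe sets, and the AdIkBa-SR arrays fell among or near those without virus. Ccr1, a receptor for Ccl3 and Ccl5, had 3670 in AdIkBa-SR+TNFa cells, 3990 in AdIkBa-SR, 3860 in AdOVA+TNFa, 3980 in AdOVA, 3230 in TNFa and 3130 in untreated cells. All 4 arrays with a virus were above both without it, but the span was only 1.27-fold, narrower than that of all but 5.9% of probe sets.

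With AdOVA, the control virus, Ccr7 rose and none of the other 4 genes passed a test. Ccr7 was 2.92-fold higher in AdOVA+TNFa than in TNFa cells and 2.06-fold higher in AdOVA than in untreated cells, so it was at least 2-fold higher in both pairs of arrays. Ccr7 was the only member to do so, and 1.91% of all probe sets were 2-fold higher in both pairs. It no longer passed with equal medians (mean log2 1.14) or with log2 of signal plus 16 (1.22). With 1 array per group these pairs have no replicate check. A limma fit of all 6 arrays has 1 residual degree of freedom. Its residual for a probe set is the gap between the TNFa response of AdOVA cells and that of cells with no virus. The first response spans both fluidics rounds and the other lies within round 1, so the gap also holds any difference between rounds. AdIkBa-SR cells are assumed to vary alike. limma joins this 1 degree of freedom with 17.4 prior degrees of freedom, estimated over all measured probe sets. The SEs and p-values thus rest mainly on a spread shared by probe sets of like level, not on that of the gene itself. The fit gave Ccr7 a log2 difference of 1.29 (SE 0.29, limma adjusted p = 0.011), and it called 4.03% of probe sets as risen with AdOVA. That call was lost in 7 of 10 alternative settings, with adjusted p-values from 0.0037 to 0.48, although the log2 difference stayed between 1.14 and 1.33.

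Ccr2 was 1.82-fold lower in AdOVA+TNFa than in TNFa cells and 1.96-fold lower in AdOVA than in untreated cells, just under the 2-fold rule, which 1.37% of probe sets passed downward (limma log2 -0.92, SE 0.33, adjusted p = 0.093). Its 2-fold count depends on scaling: with equal medians and with quantile normalization Ccr2 passed the rule, at mean log2 differences of -1.07 and -1.04. Cxcr4 was 1.91-fold and 1.46-fold lower in the same pairs (log2 -0.74, SE 0.24, limma adjusted p = 0.065). The fit called 3.86% of probe sets as lower with AdOVA, and neither receptor was among them. At an unadjusted p under 0.05 in limma stood 3 of the 5 members, as did 23.5% of all probe sets. Fscn1 was 1.14-fold and 1.03-fold higher and Ccr1 1.19-fold and 1.27-fold higher, with limma adjusted p-values of 0.82 and 0.55. The pair AdOVA over untreated lies within fluidics round 1, and there the log2 differences were 1.04 for Ccr7, 0.04 for Fscn1, 0.35 for Ccr1, -0.97 for Ccr2 and -0.55 for Cxcr4.

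**Figure D2:**
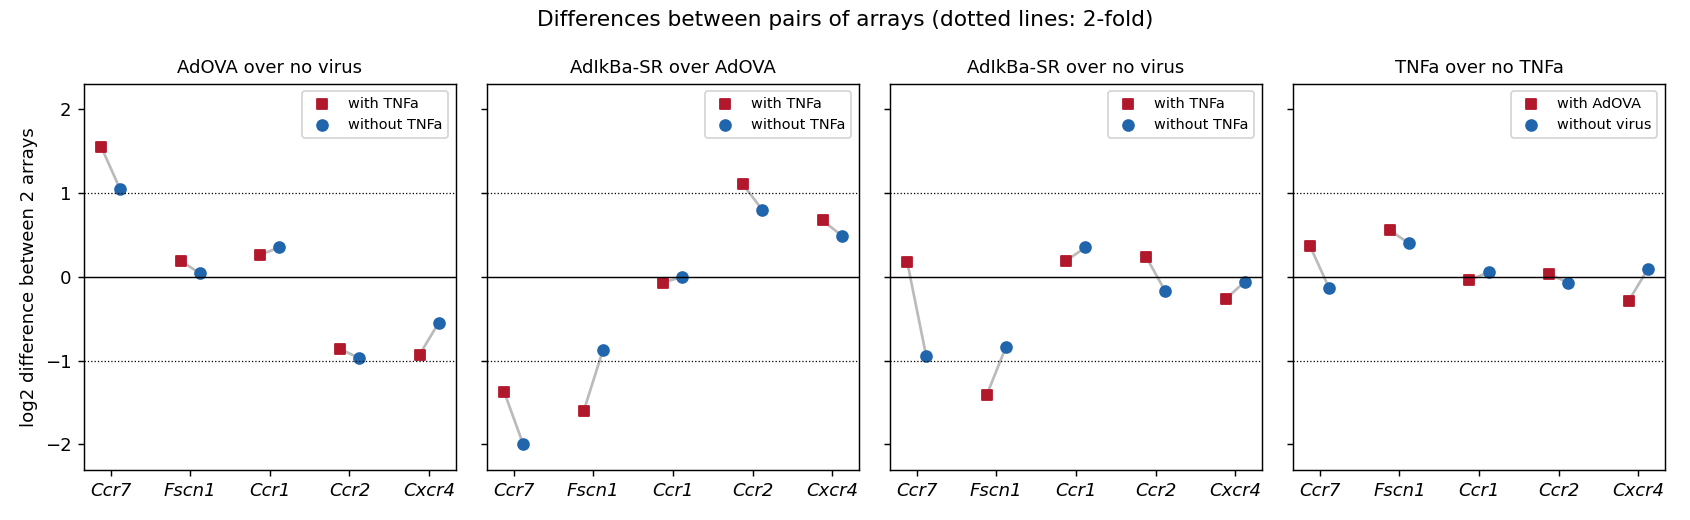
Log2 difference between the arrays of each pair (vertical axis) for the 5 genes, in 4 comparisons, with both pairs of a comparison joined by a grey line and 2-fold marked by dotted lines. With AdIkBa-SR over AdOVA, Ccr7 and Fscn1 lie below 0 in both pairs and Ccr2 and Cxcr4 above it, and the TNFa panel holds no point beyond 2-fold.

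With the super-repressor in place of the control virus, Ccr7 and Fscn1 fell. Ccr7 was 2.58-fold lower in AdIkBa-SR+TNFa than in AdOVA+TNFa cells and 3.99-fold lower in AdIkBa-SR than in AdOVA cells (limma log2 -1.68, SE 0.29, adjusted p = 0.0021). It was the only member 2-fold lower in both pairs, as were 1.65% of all probe sets. Fscn1 was 3.04-fold lower with TNFa and 1.84-fold lower without it (limma log2 -1.24, SE 0.24, adjusted p = 0.0043), and 3.39% of probe sets were called as fallen. Over 10 alternatives the adjusted p-values ran from 0.00044 to 0.4 for Ccr7 and from 0.004 to 0.39 for Fscn1, with the call lost in 4 and 5 of them. The log2 difference kept its sign in each, from -1.71 to -1.24 for Ccr7 and from -1.57 to -0.69 for Fscn1.

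Ccr2 and Cxcr4 had the opposite sign in this comparison and were not called. Ccr2 was 2.15-fold higher in AdIkBa-SR+TNFa than in AdOVA+TNFa cells and 1.75-fold higher in AdIkBa-SR than in AdOVA cells (limma log2 0.95, SE 0.33, adjusted p = 0.085). Cxcr4 was 1.59-fold and 1.40-fold higher (log2 0.58, SE 0.24, limma adjusted p = 0.16), and Ccr1 differed by 1.05-fold or less in either pair. The fit called 3.47% of probe sets as risen. At an unadjusted p under 0.05 in limma stood 4 of the 5 members, and 22.8% of all probe sets. This comparison and that of AdOVA with no virus share the AdOVA arrays, so opposite signs in them are not separate observations.

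Both arrays of the pair with TNFa lie in fluidics round 2 and had the same wash. Within it the log2 differences were -1.37 for Ccr7, -1.60 for Fscn1, -0.07 for Ccr1, 1.10 for Ccr2 and 0.67 for Cxcr4. The pair without TNFa spans both rounds and holds the array with other wash settings, so virus, round and wash cannot be told apart in it. In an additive fit without that array, the log2 difference was -1.24 for Ccr7, which was no longer called, and -1.57 for Fscn1 on its brightest probe set.

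Granulocyte and mast cell markers also differed between these arrays. The summed signal of the 9 granulocyte markers, all above the floor on at least 2 arrays, was 25030 in AdIkBa-SR+TNFa and 23320 in AdIkBa-SR, against 9635 in AdOVA+TNFa and 17550 in AdOVA and 12800 in TNFa and 19880 in untreated cells. That of the 6 mast cell and basophil markers, 5 of them above the floor on at least 2 arrays, was 1471 and 1629 with AdIkBa-SR, 865.2 and 951 with AdOVA, and 1154 and 1340 without virus, in each case with TNFa and without it. These sums rest mainly on the brightest markers, S100a8, S100a9 and Ngp in the first list and Cpa3 and Mcpt8 in the second. Not every marker followed them. Mpo was at 114 and 116 with AdIkBa-SR against 147 and 162 with AdOVA, and Elane without TNFa at 83.6 against 124. With TNFa, Kit was at 77.1 with AdIkBa-SR against 100 with AdOVA, and Ms4a2 at 59.2 against 78. The part of these markers in the values of Ccr2, Cxcr4 and the other members was not tested.

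Both pairs of AdIkBa-SR over no virus set fluidics round 2 against round 1. The pair without TNFa also holds the array with other wash settings. Virus and round cannot be told apart in either. Set against cells without virus, AdIkBa-SR cells showed no member called. Fscn1 came nearest, 2.66-fold lower in AdIkBa-SR+TNFa than in TNFa cells and 1.79-fold lower in AdIkBa-SR than in untreated cells (limma log2 -1.13, SE 0.24, adjusted p = 0.11). That value rests on 1 probe set: the other 2 above the floor gave log2 -0.32 and -0.01, and the mean over them all was -0.49 (limma adjusted p = 0.95). Fscn1 alone of the 5 members had an unadjusted p under 0.05 in limma, as did 5.47% of all probe sets. The fit called 0.0335% of all probe sets as risen and 0% as fallen, and 0.0403% were 2-fold lower in both pairs. Ccr7 was 1.13-fold higher in AdIkBa-SR+TNFa than in TNFa cells but 1.94-fold lower in AdIkBa-SR than in untreated cells, and without the AdIkBa-SR array its log2 difference was 0.05. Ccr2 differed from cells without virus by 1.18-fold or less and Cxcr4 by 1.20-fold or less in either pair.

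TNFa for 4 h moved no member past a test in cells without virus or with AdOVA. The pair with AdOVA spans both fluidics rounds, so TNFa and round cannot be told apart in it. The pair without virus lies within round 1. The limma adjusted p-values of the 5 genes ran from 0.48 to 1, none had an unadjusted p under 0.05 (11.1% of all probe sets did), and the fit called 0.0268% of all probe sets as risen and 0% as fallen. By the 2-fold rule in both pairs 0.134% of probe sets were higher and 0.168% lower, with no member among them. On the brightest probe sets Fscn1 had the largest differences of the 5 genes. It was 1.47-fold higher in AdOVA+TNFa than in AdOVA cells and 1.32-fold higher in TNFa than in untreated cells (limma log2 0.48, SE 0.24, adjusted p = 0.48). In the same order its log2 differences were 0.23 and -0.16 on probe set 1448378_at and 0.19 and 0.26 on 1416515_at. The mean over its probe sets was 0.25 (limma adjusted p = 0.74). Ccr7 was 1.28-fold higher in AdOVA+TNFa than in AdOVA cells, and its log2 difference in TNFa over untreated cells was -0.14. On their brightest probe sets, Ccr1, Ccr2 and Cxcr4 differed by 1.22-fold or less in each of these pairs.

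In AdIkBa-SR cells, Ccr7 was 1.98-fold higher with TNFa than without it, a pair in which 2.03% of probe sets passed 2-fold upward and 0.832% downward. Between these arrays TNFa and the wash cannot be told apart. Fscn1 was at 0.89 of its level without TNFa in the same cells. The TNFa response in AdIkBa-SR cells, set against the common response of the other cells, differed by a log2 value of 0.88 for Ccr7 (SE 0.51) and -0.65 for Fscn1 (SE 0.42), with a limma adjusted p of 1 for each of the 5 genes.

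Read together as mature-type against immature-type genes, the arrays with AdOVA and those with AdIkBa-SR lay on opposite sides of the untreated array. The mean log2 difference from untreated of Ccr7 and Fscn1 was -0.49 in AdIkBa-SR+TNFa, -0.90 in AdIkBa-SR, 1.00 in AdOVA+TNFa, 0.54 in AdOVA and 0.13 in TNFa cells. The same mean for Ccr1, Ccr2 and Cxcr4 was 0.07 in AdIkBa-SR+TNFa, 0.04 in AdIkBa-SR, -0.49 in AdOVA+TNFa, -0.39 in AdOVA and 0.02 in TNFa cells. The mature mean minus the immature mean was thus -0.56 in AdIkBa-SR+TNFa, -0.94 in AdIkBa-SR, 1.49 in AdOVA+TNFa, 0.93 in AdOVA and 0.11 in TNFa cells. All of these share the untreated array, and they are given as a description. Those of AdIkBa-SR+TNFa, AdIkBa-SR and AdOVA+TNFa cells also set fluidics round 2 against round 1. The AdIkBa-SR value comes from the array with other wash settings, on which Ccr7 was at -0.95. The 2 sets were not uniform: with AdOVA alone the mature-type mean came from Ccr7 (1.04) and hardly from Fscn1 (0.04), and in AdIkBa-SR+TNFa cells from Fscn1 (-1.01, on its brightest probe set) and hardly from Ccr7 (0.04). The mean of these genes thus rests on a different gene in these 2 groups. With AdOVA alone, Ccr1 (0.35) had the opposite sign to Ccr2 (-0.97) and Cxcr4 (-0.55).

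Probe sets of 1 gene did not always agree. For Fscn1 the fall with AdIkBa-SR rests on probe set 1416514_a_at. On 1448378_at the signals were 310 in AdIkBa-SR+TNFa, 262 in AdIkBa-SR, 376 in AdOVA+TNFa, 321 in AdOVA, 337 in TNFa and 375 in untreated cells, so that both AdIkBa-SR arrays were again the lowest but by less (limma log2 -0.29, SE 0.27, adjusted p = 0.56 against AdOVA). A dimmer one, 1416515_at, had 89.8 in AdIkBa-SR+TNFa and 60.7 in AdIkBa-SR cells, against 116 in AdOVA+TNFa and 101 in AdOVA cells and 81.6 in TNFa and 68.0 in untreated cells. AdIkBa-SR+TNFa lay above both arrays without virus here, so the AdIkBa-SR arrays were not the lowest pair, and against AdOVA the difference was log2 -0.55 (SE 0.29, limma adjusted p = 0.27). The last, 1416516_at, was under the floor on every array, with signals up to 21.2. Averaged over the probe sets above the floor, the Fscn1 difference was log2 -0.69 and was not called (limma adjusted p = 0.13).

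Of the 3 Ccr2 probe sets, 1421187_at followed the brightest one, with 110 in AdIkBa-SR+TNFa, 94.9 in AdIkBa-SR, 64.7 in AdOVA+TNFa, 36.1 in AdOVA, 91.5 in TNFa and 105 in untreated cells. Both AdOVA arrays were the lowest on it too, 1 of them under the floor. The third, 1421188_at, was above the floor on 3 of 6 arrays, from 9.49 in AdOVA+TNFa to 105 in TNFa cells. The second Ccr1 probe set, 1419610_at, read from 236 in AdOVA+TNFa and 235 in untreated cells to 403 in AdIkBa-SR cells, with no order by virus. Ccr7 and Cxcr4 have 1 probe set each, so the Ccr7 calls rest on a single reading.

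**Figure D3:**
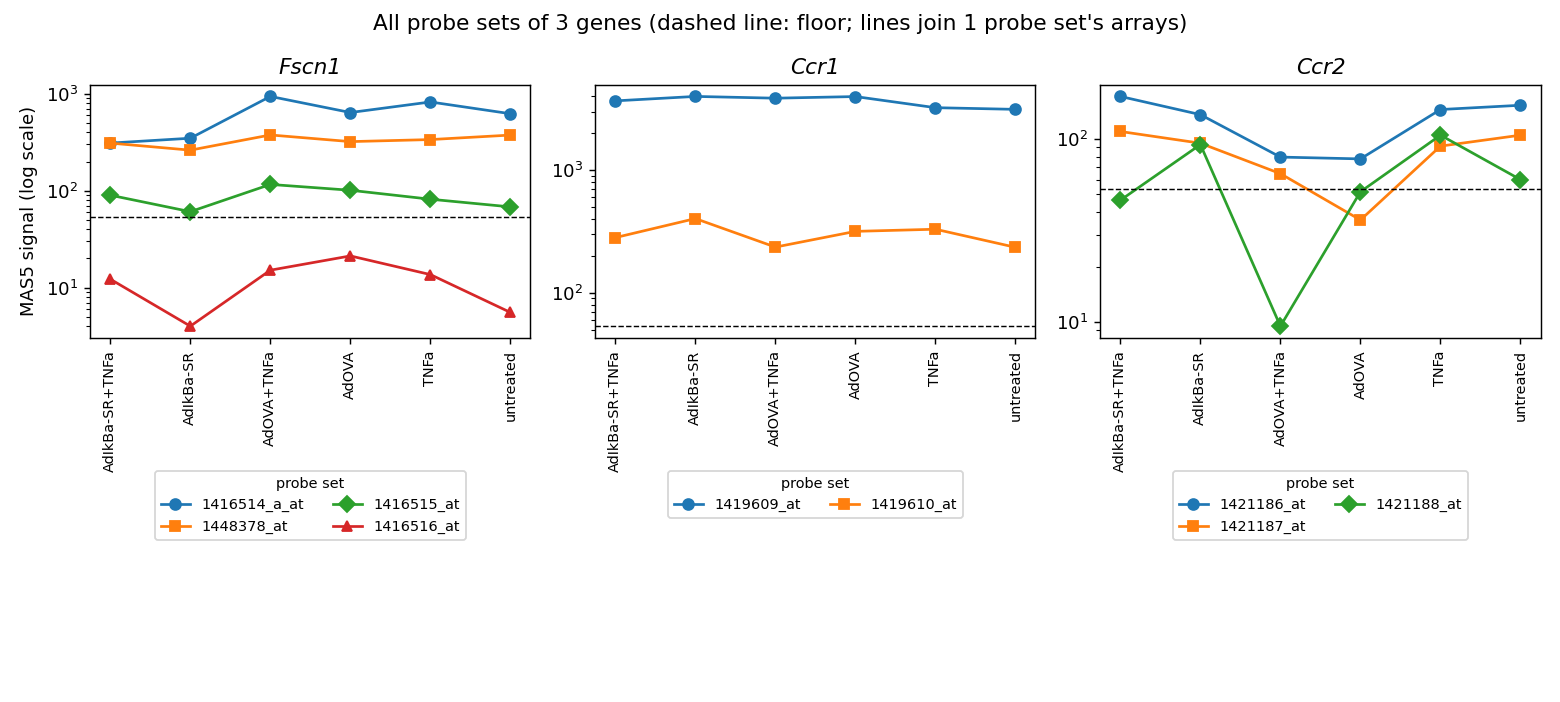
MAS5 signal on a log axis for every probe set of Fscn1, Ccr1 and Ccr2 on the 6 arrays, with the floor of 53.5 as a dashed line. The AdIkBa-SR dip of Fscn1 is deepest on 1416514_a_at, at 310 and 348, and the AdOVA dip of Ccr2 is seen on its 2 brighter probe sets.

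Genes of the ligands of these receptors were read on the same arrays. Of 12 listed, 10 were measured, and Ccl19 and Ccl21a, the genes of Ccr7 ligands, were not analysed here. Of the 10, limma called 3 as risen with AdOVA, 2 as risen with AdIkBa-SR over AdOVA and 1 as risen with AdIkBa-SR over no virus, where all probe sets had 4.03%, 3.47% and 0.0335%. Ccl7, a ligand of Ccr1 and Ccr2, had 2220 in AdIkBa-SR+TNFa cells, 2610 in AdIkBa-SR, 694 in AdOVA+TNFa, 1550 in AdOVA, 437 in TNFa and 405 in untreated cells. It was highest with AdIkBa-SR, where Ccr2 was near its level without virus, and it rose in AdIkBa-SR over AdOVA (limma log2 1.21, SE 0.28, adjusted p = 0.014) and over no virus (log2 2.51, adjusted p = 0.00025). Ccl2, the main ligand of Ccr2, had 13000 in AdIkBa-SR+TNFa, 13300 in AdIkBa-SR, 5540 in AdOVA+TNFa, 9690 in AdOVA, 5160 in TNFa and 5980 in untreated cells. With Ccl4, Ccl7 and Ccl12 it was 1 of 4 ligand genes at least 2-fold higher in both pairs of AdIkBa-SR over no virus. Of all probe sets 0.134% passed that rule, but limma did not call Ccl2 (adjusted p = 0.42). Both pairs set fluidics round 2 against round 1. Virus and round therefore cannot be told apart in this comparison, for Ccl7 as for the other ligand genes.

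Ccl12, another Ccr2 ligand of the mouse, had 151 in AdIkBa-SR+TNFa and 136 in AdIkBa-SR cells, 29.0 in AdOVA+TNFa and 74.8 in AdOVA cells, and 4.5 in TNFa and 6.79 in untreated cells. The AdOVA+TNFa, TNFa and untreated values lie under the floor, and Ccl12 rose in AdIkBa-SR over AdOVA (limma adjusted p = 0.016). Against the floor, it was at least 2.83-fold higher in AdIkBa-SR+TNFa than in TNFa cells, and by at least 2.55-fold in AdIkBa-SR over untreated cells. Ccl8 stood between 129 and 242. The Ccr1 ligands Ccl5 (10200 to 18300), Ccl6 (8080 to 13800) and Ccl9 (8820 to 11900) were bright on every array and not called. Ccl3 (7040 in AdOVA cells, against 2540 in untreated cells) rose with AdOVA (limma log2 1.11, adjusted p = 0.028), as did Ccl7 (log2 1.30, adjusted p = 0.0073) and Ccl4 (log2 2.14, adjusted p = 4.2e-05). Cxcl12, the Cxcr4 ligand, was near or under the floor throughout, from 22.2 to 55.3.

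**Figure D4:**
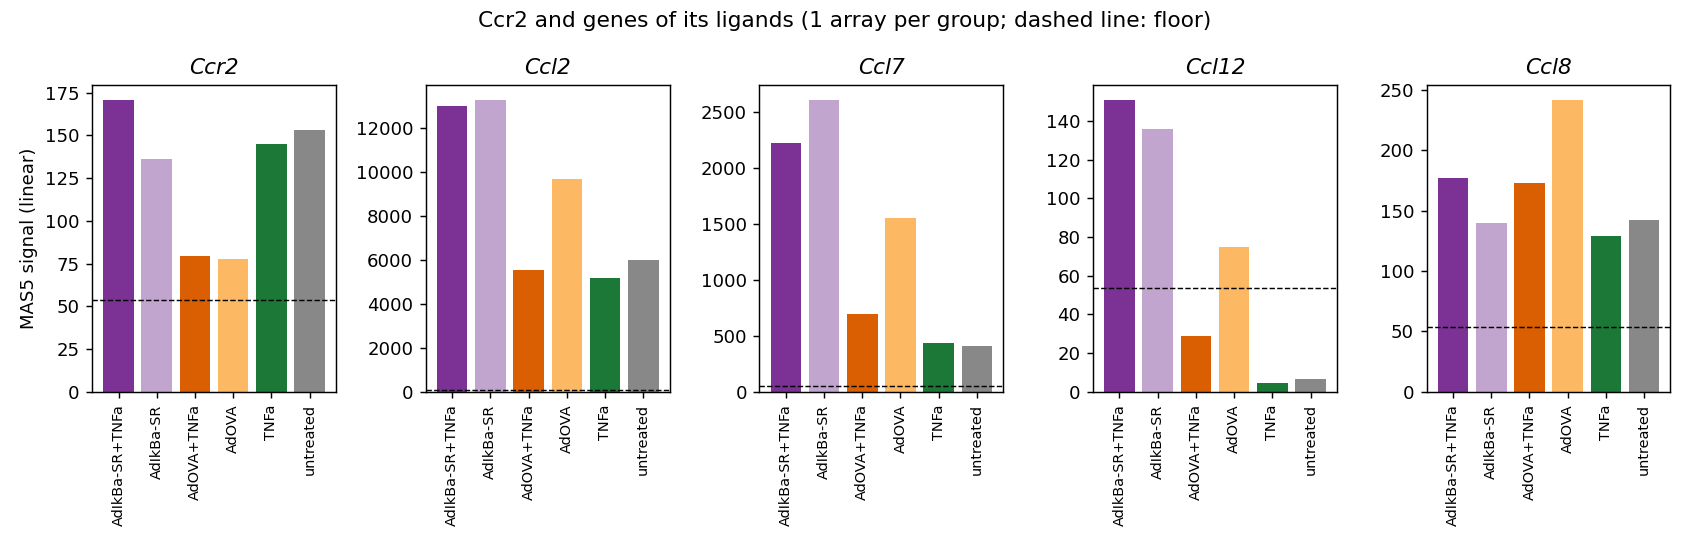
MAS5 signal on a linear axis for Ccr2 and the genes of 4 of its ligands, 1 bar per array, with the floor of 53.5 as a dashed line. Ccr2 is lowest in both AdOVA arrays, at 79.7 and 77.9, while Ccl2, Ccl7 and Ccl12 are highest in both AdIkBa-SR arrays.

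Among 12 other measured chemokine receptor genes, limma called 1 as risen with AdOVA and 1 as fallen with AdIkBa-SR over AdOVA. Of all probe sets, 4.03% and 3.39% were called so. Both calls were of the same gene, Ccrl2, a chemerin-binding receptor without classical signalling. Ccrl2 had 891 in AdIkBa-SR+TNFa, 695 in AdIkBa-SR, 3230 in AdOVA+TNFa, 2940 in AdOVA, 610 in TNFa and 535 in untreated cells. Like Ccr7 it was highest in both AdOVA arrays, 5.30-fold and 5.50-fold over cells without virus (adjusted p = 3.5e-06), and 3.63-fold and 4.23-fold lower with AdIkBa-SR than with AdOVA (limma adjusted p = 6.6e-05). The median of the mean log2 differences of these 12 genes was 0.48 for AdOVA and -0.32 for AdIkBa-SR over AdOVA, where all probe sets had 0.06 and -0.09. Ccr3, next to Ccr2 on chromosome 9, was under the floor on every array, and Xcr1, next to Ccr1, ran from 12.8 to 82.8.

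Of 29 measured actin and protrusion genes, the setting in which fascin works, 0 were called with AdOVA (5 at an unadjusted p under 0.05 in limma, a level reached by 23.5% of all probe sets). With AdIkBa-SR over AdOVA, limma called 1 as risen and 1 as fallen, where all probe sets had 3.47% and 3.39%. Coro1a, the actin-binding coronin of leukocytes, rose 2.78-fold with and 2.40-fold without TNFa (limma adjusted p = 0.0033), and Myo10, the myosin of filopodia, fell 2.29-fold and 1.99-fold (adjusted p = 0.049). Myo10 thus moved in the direction of Fscn1 and Coro1a opposite to it. The median of the 29 was 0.26, against -0.09 for all probe sets.

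Of 12 other measured chemoattractant and lipid receptor genes, limma called 0 with AdOVA (1 at an unadjusted p under 0.05) and 2 as risen with AdIkBa-SR over AdOVA. Of all probe sets, limma called 4.03% as risen and 3.86% as fallen with AdOVA, and 3.47% as risen with AdIkBa-SR over AdOVA. C5ar1, the receptor of complement C5a, had 1050 in AdIkBa-SR+TNFa and 715 in AdIkBa-SR cells, against 353 in AdOVA+TNFa and 236 in AdOVA cells (limma adjusted p = 0.00084), and Ltb4r1, a leukotriene B4 receptor, rose as well (limma adjusted p = 0.042). Among 19 measured genes of chemokine receptor signalling, limma called 1 as risen and 2 as fallen with AdOVA. Rgs16 rose, and Rgs18 and the receptor kinase gene Grk6 fell (limma adjusted p from 0.03 to 0.048). Each rests in part on signals under the floor. Rgs16 was at 10 in TNFa and 45.6 in untreated cells, and Rgs18 at 50.4 in AdOVA+TNFa cells. With AdIkBa-SR over AdOVA, Gng2 and Grk6 rose (limma adjusted p = 0.036 and 0.046). Both rest mainly on the pair with TNFa, against AdOVA+TNFa signals under the floor: Gng2 was at least 5.30-fold higher there and 1.25-fold higher without TNFa. Grk6, under the floor in both AdOVA arrays, was higher by at least 2.97-fold with TNFa and 1.33-fold without it. With TNFa no gene of these lists passed the test, with 3 of 19 signalling, 3 of 29 actin and 1 of 12 chemoattractant receptor genes at an unadjusted p under 0.05 in limma, and 0 among the other receptors and the ligands, against 11.1% of all probe sets.

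Genes whose signal ran most like that of each member were found by Pearson's r of log2 signal over the 6 arrays, among about 2390 genes above the floor on every array that spanned at least 2-fold. For Ccr7 these were Zfp239 (r = 0.992), Fam98c (0.989) and Aldh1a2 (0.983), a retinoic acid synthesis enzyme, which had 663 and 545 with AdOVA and 313 or less elsewhere. For Fscn1 they were Clip1, a microtubule plus-end protein (0.983), Teddm3 (0.980) and Col4a2 (0.960). For Ccr2 they were Lipa, lysosomal acid lipase (0.987), Prep (0.987) and Dohh (0.983), and for Cxcr4 Nap1l1 (0.992), Pbdc1 (0.987) and Ccn3 (0.987). Ccr1, with its narrow span, ran most like Dusp1 (0.969), Fcgr4 (0.936) and Npy1r (0.921). All of these correlations share the same 6 arrays, were picked as the highest of many and are a description.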

How the data were processed

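The authors deposited 1 linear intensity (signal) per probe set and array. The submitters' processing notes name MAS5, with no version in the sources used here. MAS5 scales each array to a common average, so a difference is relative to the other transcripts of that array. No rescaling was applied. Of 22626 probe sets that are not controls, 20380 have 1 gene symbol in the platform annotation, with symbols updated to RefSeq's. Fluidics settings, and the hybridization dates that define the fluidics rounds, came from the array headers.

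Signals under 53.5 were raised to it and log2 taken. The 14906 probe sets above it on at least 2 arrays were measured. Differences were read in 2 pairs that share no array, and called at 2-fold or more in the same direction in both. limma 3.58.1 (R 4.3.3; lmFit, eBayes with a trend) was fitted to all 6 arrays with 5 coefficients: 3 virus states, 1 common TNFa response of AdOVA and no-virus cells, and 1 in AdIkBa-SR cells. Contrasts of virus states average cells without and with TNFa, and Benjamini-Hochberg adjustment ran over all 14906. Since residuals come from TNFa responses and the spread is mainly borrowed from all probe sets, p-values do not measure variation between cultures. Data for AdOVA over no virus were simulated with 14906 probe sets, with changes placed only in those above the median level. The noise was independent between arrays, with no round, wash or scaling effect. In these data limma found 38 of 67 changed 2-fold, 67 of 67 changed 4-fold and 66 of 66 changed 8-fold, with 14 false calls. The 2-fold rule found 8, 65 and 66 of these, with 1 false call, so it missed most changes of 2-fold. Ccr2, at percentile 41.8 of mean level, lies below the simulated range, and real arrays may do worse.

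The members, lists and tests were chosen with earlier results of these data known. Named genes were all members, every measured ligand, list genes 2-fold apart in both pairs (at most 5 per list and comparison) and the 3 genes most like each member. Ltb4r1, Myo10, Rgs16, Rgs18, Grk6 and Gng2 were named after their values were seen.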

Additional observations from a re-analysis of the deposited data

How the results depend on the processing

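No paired analysis was possible because each group has 1 array and the labels give no replicate numbers. Over 320 alternative values of the 5 genes, 278 kept their direction and their side of the threshold. The number of the 5 genes called by limma was 1 for AdOVA over no virus and became 0 with the floor at the 25th percentile, equal medians, quantile normalization, no filter on low signals, the additive fit, that fit with the fluidics round as a block and that fit without the AdOVA+TNFa array. For AdIkBa-SR over AdOVA it was 2 and became 1 with the mean over all probe sets, with the floor at the 25th percentile and in the additive fit without the AdIkBa-SR array, and 0 with no filter, with the round blocked, and when the AdOVA+TNFa array was left out. With no filter, 22626 probe sets entered the fit in place of 14906. The cause of these losses was not tested. By the 2-fold rule in both pairs the count for AdOVA was 1, and became 0 with log2 of signal plus 16 (Ccr7 at 1.22) and 2 with quantile normalization. With equal medians Ccr2 replaced Ccr7 in it, Ccr7 being at 1.14. The median over all 14906 probe sets was -0.08 with equal medians and 0.06 as deposited for AdOVA over no virus, and 0.07 and -0.09 for AdIkBa-SR over AdOVA.

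Signs turned only for values that were not called, none above 0.39 in size. Averaging probe sets turned Ccr1 in AdIkBa-SR over AdOVA to 0.13, Ccr2 in AdIkBa-SR over no virus to -0.02 and Ccr2 with TNFa to 0.14. Equal medians turned Fscn1 with AdOVA to -0.04, Ccr1 in AdIkBa-SR over AdOVA to 0.16 and Ccr1 with TNFa to -0.04. The additive fit turned Ccr1 with TNFa to -0.04 and Ccr2 with TNFa to 0.10. With the round as a block these stood at -0.04 and 0.13, Fscn1 with AdOVA at -0.10 and Cxcr4 in AdIkBa-SR over no virus at 0.12. Without the AdOVA+TNFa array the first 3 were again -0.04, 0.13 and -0.10, and without the AdIkBa-SR array Ccr7 in AdIkBa-SR over no virus was 0.05. Ccr2, at 77.9 to 171, lay nearest to the floor of the 5 readings, so its log2 differences are the least precise.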
